A study of Mus musculus with 24 samples.

Results

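The AP-1 transcription factor is a dimer of basic leucine zipper proteins, and 6 genes for its subunits are described here: Fos, Fosb and Fosl2 of the Fos family and Jun, Junb and Jund of the Jun family. They were taken by gene symbol from the deposited signal table, where they had 8 of 24691 probes (3 for Fosl2 and 1 for each of the others). All 6 had a probe that passed the filter on dim probes (detected on 3 or more arrays), out of 10898 genes tested. Fosb passed it only through its arrays at 5 and 24 h of 1 µM, where it was high. Its calls in those groups are therefore not independent of that filter, and a filter at 12 detected arrays left it out. Jund stands in the table under an older symbol and was matched by its RefSeq accession. Fosl1, the remaining Fos family gene, is given with the dimer partners below.

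Fos proteins bind DNA mainly as dimers with a Jun protein, whereas Jun proteins also pair with each other and with relatives such as Atf3. The dimers bind the AP-1 site of their target genes. Fos, Fosb and Junb are immediate early genes, whose transcripts appear briefly after synaptic activity or stress, and in neurons deprived of trophic support Jun is induced through the JNK kinases. Fos and Jun proteins are short-lived and are degraded in part by the proteasome.

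The arrays come from primary cultures of neocortical neurons of Swiss albino mouse fetuses at gestation day 15 to 16, used on culture day 5. Cultures received lactacystin, which blocks the proteasome. At 1 µM they were taken after 5, 8, 15 or 24 h, and at 0.1 µM after 15 or 24 h. Each of these 6 groups has 3 arrays, and 6 untreated control arrays stand against them. The stock was made in dimethyl sulfoxide. The labels give the controls neither a vehicle nor a collection time, and do not state whether each array stands for its own culture. P-values here therefore cover the scatter among arrays, part of which may be technical.

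The transcription start regions of the 4 members that hold a match to a searched motif are shown first. They are RefSeq windows on GRCm38.p6, from 250 bases before to 50 bases after the start, read 5′ to 3′ on the strand of the gene. Fos lies on the plus strand at chr12:85473640-85473939, Fosb on the minus strand at chr7:19309996-19310295, Jun on the minus strand at chr4:95052173-95052472 and Junb on the minus strand at chr8:84978699-84978998. Capitals mark matches on either strand to TGANTCA (the AP-1 site), to TGACNTCA (the cyclic AMP response element and its variants), to TGACG (the start of that element, so that both overlap where N is G), to CCAAT, to the TATA box TATAAA and to the CArG box.
Fos: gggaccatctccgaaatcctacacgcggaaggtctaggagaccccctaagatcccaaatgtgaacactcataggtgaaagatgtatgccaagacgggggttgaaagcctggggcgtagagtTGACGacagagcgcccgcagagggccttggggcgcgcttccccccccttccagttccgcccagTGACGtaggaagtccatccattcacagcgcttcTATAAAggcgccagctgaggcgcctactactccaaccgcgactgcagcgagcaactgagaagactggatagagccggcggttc
Fosb: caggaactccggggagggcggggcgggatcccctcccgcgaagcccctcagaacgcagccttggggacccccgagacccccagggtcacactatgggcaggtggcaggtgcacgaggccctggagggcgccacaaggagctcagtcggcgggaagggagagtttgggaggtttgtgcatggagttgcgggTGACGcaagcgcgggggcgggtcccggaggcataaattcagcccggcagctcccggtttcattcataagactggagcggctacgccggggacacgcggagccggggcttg
Jun: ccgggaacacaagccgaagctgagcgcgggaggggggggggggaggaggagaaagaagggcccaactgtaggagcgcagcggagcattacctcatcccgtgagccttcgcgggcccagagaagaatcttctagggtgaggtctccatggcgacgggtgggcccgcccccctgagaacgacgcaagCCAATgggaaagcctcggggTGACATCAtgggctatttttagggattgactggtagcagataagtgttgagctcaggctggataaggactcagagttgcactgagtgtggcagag
Junb: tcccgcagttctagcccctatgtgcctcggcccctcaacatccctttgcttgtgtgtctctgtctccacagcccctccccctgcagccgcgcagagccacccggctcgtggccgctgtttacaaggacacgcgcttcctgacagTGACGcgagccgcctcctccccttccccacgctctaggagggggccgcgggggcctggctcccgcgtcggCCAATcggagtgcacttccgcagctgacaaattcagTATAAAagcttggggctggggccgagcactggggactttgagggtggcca

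In the Fos window TGACG began at positions -129 and -66 and TATAAA at -33, counted from the start. Fosb held TGACG at -60, and Junb held TGACG at -106, CCAAT at -36 and TATAAA at 1. Jun held TGACATCA, a match to TGACNTCA, at -45 and CCAAT at -65. Of 32851 windows of this length, TGACG was in 20.8%, TGACNTCA in 8.83%, CCAAT in 37.4%, TATAAA in 13.6%, TGANTCA in 7.81% and the CArG box in 1.63%. The windows of Fosl2 (chr5:32136222-32136521, plus strand) and Jund (chr8:70697489-70697788, plus strand) held none of the 6 motifs. These matches are letters in a window and show no binding. Sites more than 250 bases before the start were not searched, so a missing match does not show that a promoter lacks the motif.

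The 24 arrays lay on 3 slides, each with 2 controls and 1 array of every treated group, and each treated group kept 1 position on the slide, so that position and group cannot be told apart. Between 11276 and 12412 probes were detected on an array. Of 6 neuronal markers with a probe 5 were detected on every array of every group, while Snap25 was undetected in 3 groups. Glial markers were present too: 5 of 7 astrocyte, 6 of 7 oligodendrocyte lineage and 3 of 8 microglial markers were detected on all 6 controls. Endothelial and fibroblast markers were mostly undetected: none of 5 and 1 of 5 were detected on all arrays of any group. Control 5, on slide 3, stood farthest from the other controls, with a root mean square distance of 0.405 on the log2 scale against 0.216 to 0.311 for the others, and had the highest array median signal of all 24 arrays, 81.0. Where leaving it out changed a member's call, the result without it is given. In whole-culture RNA, fewer cells of a type and less RNA per cell cannot be told apart.

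Jun, the subunit that JNK activates, was higher in lactacystin at 1 µM at every time. Its normalized log2 intensity was 9.36, 9.47 and 9.37 in the 3 arrays at 5 h of 1 µM, 10.22, 10.13 and 10.21 at 8 h, 10.42, 10.60 and 10.52 at 15 h, and 10.19, 10.18 and 10.30 at 24 h. At 0.1 µM it was 7.60, 7.75 and 7.95 at 15 h and 7.90, 8.08 and 8.22 at 24 h, and in controls 1 to 6 it was 8.95, 8.06, 8.61, 8.30, 7.73 and 8.16. Every array at 1 µM lay above every control and above every array at 0.1 µM, which no other member showed at all times. At 0.1 µM the arrays lay in the lower part of the control range or below it. Control 5 was the lowest control for Jun after normalization, although its signal before normalization, 381.7, lay within the range of the other controls, 296.8 to 586.8.

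Junb, an immediate early subunit that can dampen Jun activity, was highest at 5 h of 1 µM. Its log2 intensities were 6.79, 6.62 and 7.48 there, 6.11, 6.22 and 6.24 at 8 h, 5.71, 6.20 and 5.88 at 15 h, and 6.31, 6.63 and 6.61 at 24 h. They were 5.35, 5.41 and 5.97 at 15 h of 0.1 µM, 5.45, 5.56 and 5.66 at 24 h of 0.1 µM, and 5.37, 5.60, 5.56, 6.04, 5.90 and 5.90 in the controls. The arrays at 5, 8 and 24 h of 1 µM were all above the controls, and those at 15 h overlapped them. Jund, the subunit that most cells express steadily, varied over a narrower span. It measured 8.14, 8.22 and 8.26 at 5 h of 1 µM, 8.09, 7.53 and 7.70 at 8 h, 7.94, 8.06 and 7.91 at 15 h and 7.91, 7.91 and 7.89 at 24 h. At 0.1 µM it measured 6.99, 6.97 and 6.96 at 15 h and 7.05, 7.27 and 7.25 at 24 h, against 7.68, 7.22, 7.13, 7.12, 8.12 and 7.61 in the controls. The 3 arrays at 15 h of 0.1 µM lay below every control, and those at 5 h of 1 µM above every control.

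Fos, the prototype immediate early gene, was high at 5 h and again at 24 h of 1 µM. Its log2 intensities were 9.50, 9.34 and 9.85 at 5 h of 1 µM, 8.86, 8.79 and 8.68 at 8 h, 8.31, 8.39 and 8.13 at 15 h, and 9.44, 9.26 and 9.32 at 24 h. They were 7.28, 6.94 and 7.44 at 15 h of 0.1 µM and 7.0, 6.63 and 6.44 at 24 h of 0.1 µM. The controls measured 5.94, 7.11, 5.97, 6.62, 9.70 and 7.93. Every array at 1 µM was above 5 of the 6 controls, and control 5 lay within or above each group at 1 µM. Before normalization control 5 had a Fos signal of 1358.5, with a standard error over its beads of 56.1, against 89.8 to 304.2 in the other controls.

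Fosb, which encodes a Fos protein and its truncated form ΔFosB, was detected on 8 of 24 arrays. It was detected on 3 of 3 arrays at 5 h of 1 µM (6.93, 6.96 and 7.26 log2 intensity) and on 3 of 3 at 24 h (6.39, 5.32 and 5.92), on 1 of 3 at 8 h (4.74, 4.79 and 5.16) and on 0 of 3 at 15 h (4.55, 4.71 and 4.3). At 0.1 µM it was not well above background on any array, with 4.35, 4.20 and 4.23 at 15 h and 4.31, 4.41 and 4.5 at 24 h. Among the controls, control 5 alone detected it, at 7.19, while the other controls lay between 4.3 and 4.6. The plot of single arrays shows that Fos, Fosb, Fosl2 and Jund each had control 5 as their highest control.

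Fosl2, also called Fra-2, was highest at 5 h of 1 µM and then lower at each later time. Its brightest probe measured 10.89, 11.02 and 11.07 at 5 h, 10.46, 10.41 and 10.62 at 8 h, 9.99, 10.17 and 10.02 at 15 h, and 9.43, 9.44 and 9.48 at 24 h. It measured 8.79, 8.79 and 8.71 at 15 h of 0.1 µM and 9.04, 9.06 and 8.91 at 24 h of 0.1 µM, against 10.08, 9.01, 9.81, 8.94, 11.04 and 10.62 in the controls. The controls spread over most of the range of the treated groups, with an SD of 0.844 (n = 6), against 0.0294 to 0.108 (n = 3) in the treated groups. Both other Fosl2 probes were dim, detected on 4 and 0 of 24 arrays, and correlated with the brightest at r = 0.43 and 0.37 over the 24 arrays.

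**Figure D1:**
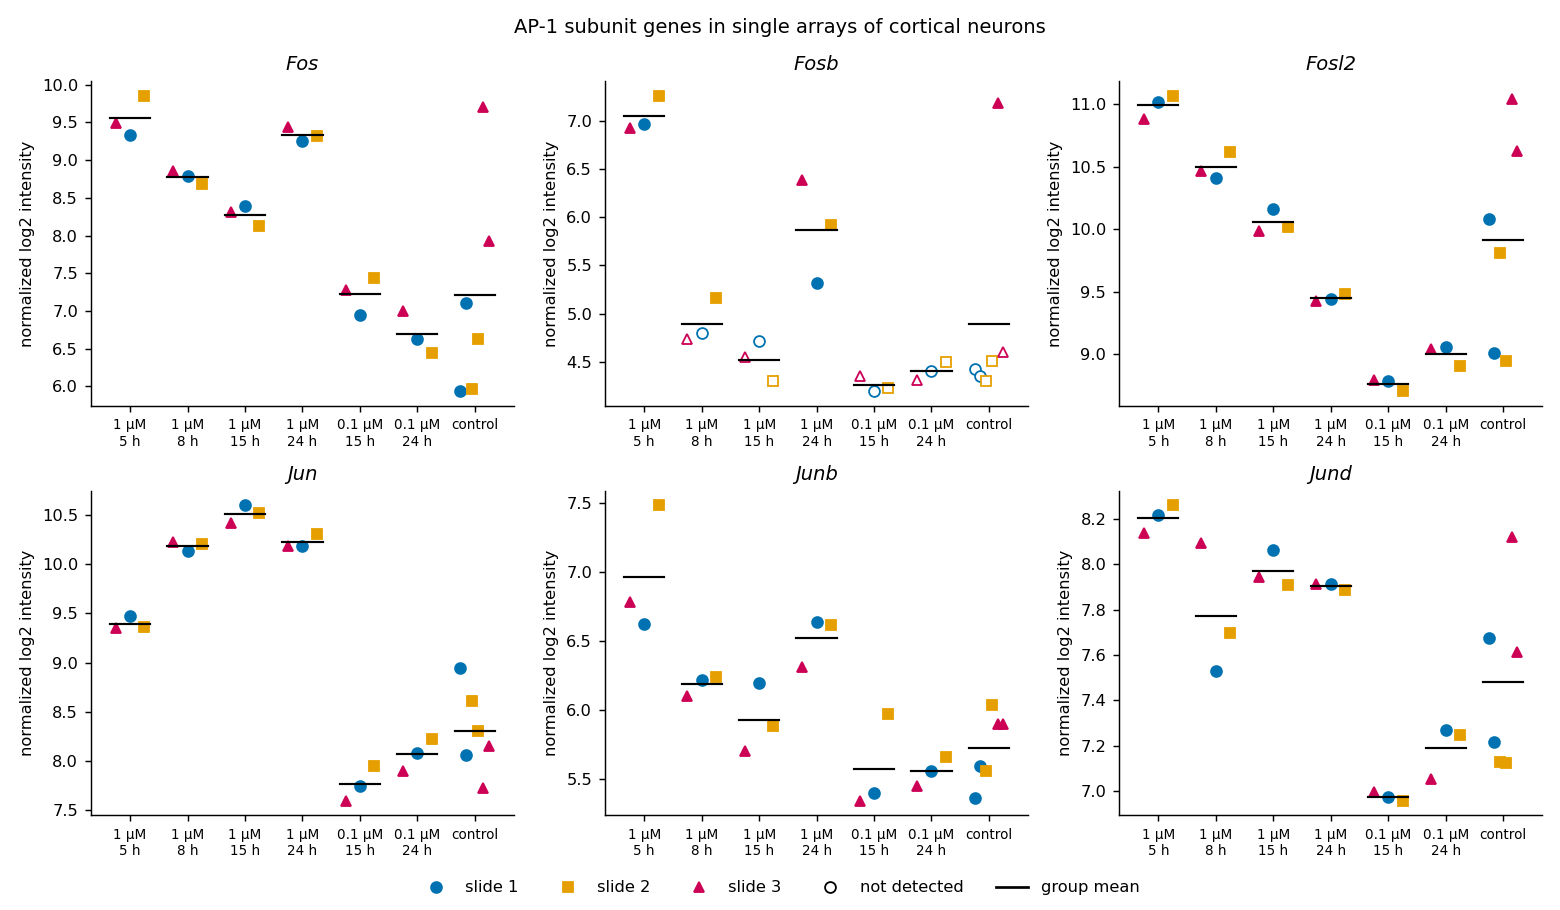
Normalized log2 intensity (vertical axis) of the 6 AP-1 subunit genes in each of the 24 arrays, by group, with the slide given by colour and shape, open symbols for arrays on which the probe was not detected and a line at each group mean. Jun at 1 µM sits above all controls at all 4 times, and control 5, a triangle, is the highest control for Fos (9.70), Fosb (7.19), Fosl2 (11.04) and Jund (8.12).

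The first comparison asks how the subunits change over time under the higher dose. All comparisons with controls share the same 6 control arrays, so they are not independent of each other. At 5 h of 1 µM all 6 rose against the controls, where 6.19% of all genes tested rose. Fos rose by 2.35 ± 0.505 on the log2 scale (SE, adjusted p = 0.00449) and Fosb, detected on 1 of the 6 controls, by 2.16 ± 0.415 (adjusted p = 0.00199). Junb rose by 1.24 ± 0.176 (adjusted p = 9.85e-05), Jun by 1.1 ± 0.167 (adjusted p = 0.000208), Fosl2 by 1.07 ± 0.297 (adjusted p = 0.0242) and Jund by 0.73 ± 0.162 (adjusted p = 0.00599). The median change of the members was 1.17, against -0.008 over all genes. Jun, Junb and Jund did not overlap the controls, with exact two-sided permutation p of 0.0119, 0.0119 and 0.0238 (0.0119 is the smallest that 3 against 6 arrays can give), while Fos, Fosb and Fosl2 did, with p of 0.0595, 0.0357 and 0.0714.

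These calls rest to different degrees on how the spread among the controls is handled. When the 5 h arrays and the controls were fitted alone, Jun and Junb kept their calls (adjusted p = 0.0406 and 0.0151), while Fos, Fosb, Fosl2 and Jund did not (adjusted p = 0.125, 0.0867, 0.232 and 0.115). Under median centring Fosl2 and Jund lost their calls, and Fosl2 also lost its call when any 1 of the 3 arrays at 5 h was left out. Without control 5 all 6 were called, with Fos at 2.85 and Fosl2 at 1.3, and Fosb at least 3.97-fold higher than the other 5 controls, none of which detected it (mean log2 intensities of 7.05 and 4.44). Such a bound sets the mean of the brighter group against, for each dimmer array, the higher of its own value and the lowest detected value on that array. Set against the 2 controls of its own slide, the 5 h array differed by 2.82, 3.56 and 0.68 for Fos on slides 1, 2 and 3, by 1.47, 1.69 and 0.06 for Fosl2, and by 0.77, 1.14 and 0.27 for Jund. Slide 3, which holds controls 5 and 6, gave the smallest difference for these 3 members. The same slide gave the smallest for Fosb and for Junb (1.14, 1.68 and 0.89 on slides 1, 2 and 3). For Jun slide 3 gave the largest, with 0.96, 0.91 and 1.41 on slides 1, 2 and 3.

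At 8 h 3 members had risen (Jun, Fos and Junb), against 20.1% of all genes. Jun was up by 1.89 ± 0.167 (adjusted p = 1.7e-08), Fos by 1.56 ± 0.505 (adjusted p = 0.017) and Junb by 0.46 ± 0.176 (adjusted p = 0.0411). Jun and Junb lay above every control (exact two-sided permutation p = 0.0119 and 0.0238), while Fos overlapped them (p = 0.131). Fos lost its call when the 8 h arrays and the controls were fitted alone (adjusted p = 0.112), and Junb without background correction, with an offset of 50 and with no probe filter. Fosl2 stood at 0.58 and Jund at 0.29, and neither these nor Fosb, detected on 1 of 3 arrays at 8 h, passed the test. Control 5 decided this count: without it all 6 members were called, with Fosl2 at 0.80 and Jund at 0.42, and with Fosb detected on none of the other 5 controls. Without replicate 1 or without replicate 2 of the 8 h group Jun alone was called, and Junb lost its call without any 1 of controls 1, 2 and 3 or of the 8 h arrays. Within slides, Fos differed by 2.27, 2.38 and 0.04 on slides 1, 2 and 3 at 8 h.

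At 15 h 2 of the 6 members were called as higher, where 27.2% of all genes were, a share near the background. Jun reached its largest change, 2.21 ± 0.167 (4.64-fold, adjusted p = 2.97e-10), and differed by 2.09, 2.06 and 2.48 within slides 1, 2 and 3. Jund rose by 0.49 ± 0.162 (adjusted p = 0.0133, exact two-sided permutation p = 0.0833), but lost its call in the fit of the 15 h arrays and controls alone (adjusted p = 0.0726), under median centring, in the authors' ratio table and without replicate 2 of the 15 h group. Fos was at 1.07 ± 0.505 (adjusted p = 0.0794) and was called without control 5, at 1.57 (adjusted p = 0.000145). Fosl2 at 0.14, Junb at 0.20 and Fosb, not well above background on any 15 h array, did not pass.

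At 24 h 5 members were called as higher, against 26.7% of all genes. Fos stood at 2.13 ± 0.505 (adjusted p = 0.00107), Jun at 1.92 ± 0.167 (adjusted p = 2.45e-09) and Junb at 0.79 ± 0.176 (adjusted p = 0.000555), and these 3 were called in every one of the 38 alternative fits. Jun and Junb lay above every control (exact two-sided permutation p = 0.0119 for each), while Fos, Fosb and Jund overlapped them (p = 0.0714, 0.238 and 0.107). Fosb at 0.98 ± 0.415 (adjusted p = 0.049) and Jund at 0.43 ± 0.162 (adjusted p = 0.0295) were weaker calls. Fosb was called in 7 of 37 alternatives and was at least 1.75-fold higher without control 5. Jund was called in 29 of 38 and lost its call without any 1 of controls 2, 3 and 4 or of the 24 h arrays. Fosl2 stood at -0.47 ± 0.297 (adjusted p = 0.189), the single member below the controls at this time, and was called as lower without control 2 (-0.65, adjusted p = 0.047) or control 4 (-0.66, adjusted p = 0.0361). The median change of the members was 0.89, against -0.046 over all genes.

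**Figure D2:**
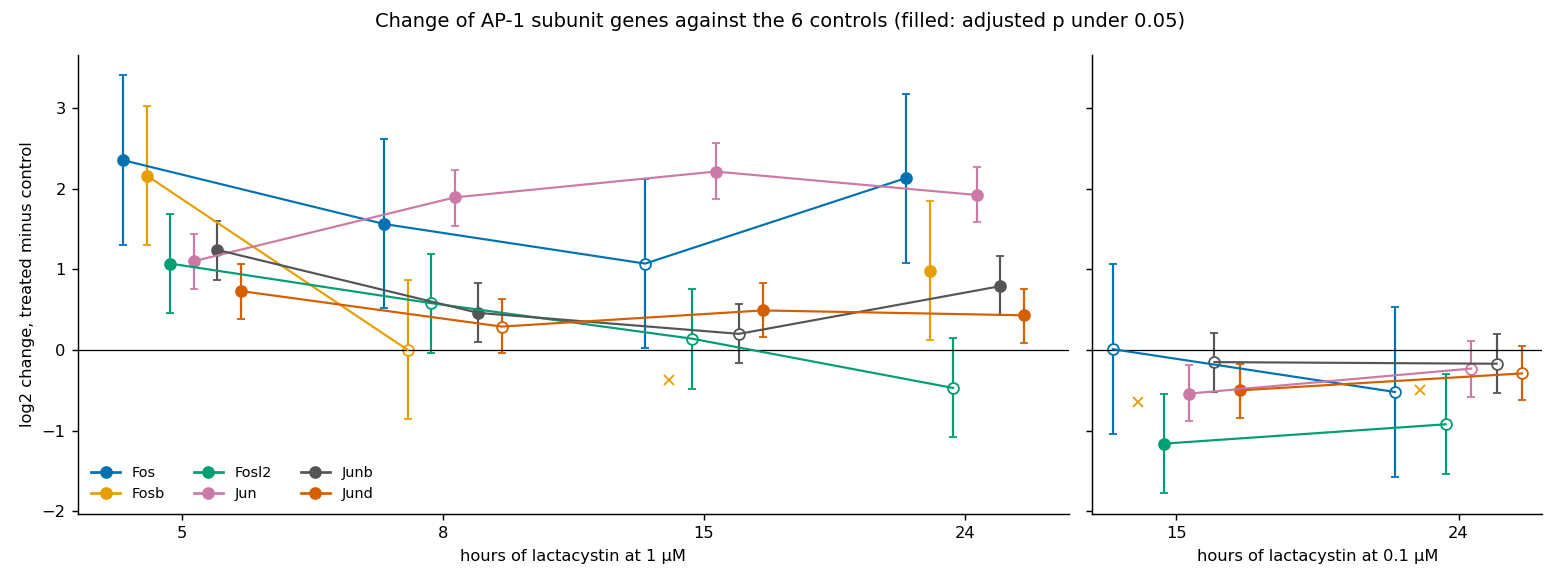
Log2 change against the 6 controls (vertical axis, bars for the 95% confidence interval of the fit) of the 6 subunit genes at 5, 8, 15 and 24 h of 1 µM lactacystin (left) and at 15 and 24 h of 0.1 µM (right), filled where the adjusted p is under 0.05. Crosses without bars mark Fosb in groups where no array detected it. Jun stays between 1.1 and 2.21 at 1 µM, Fos is at 2.35 at 5 h and at 2.13 at 24 h, and Fosl2 ends at -0.47.

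**Figure D3:**
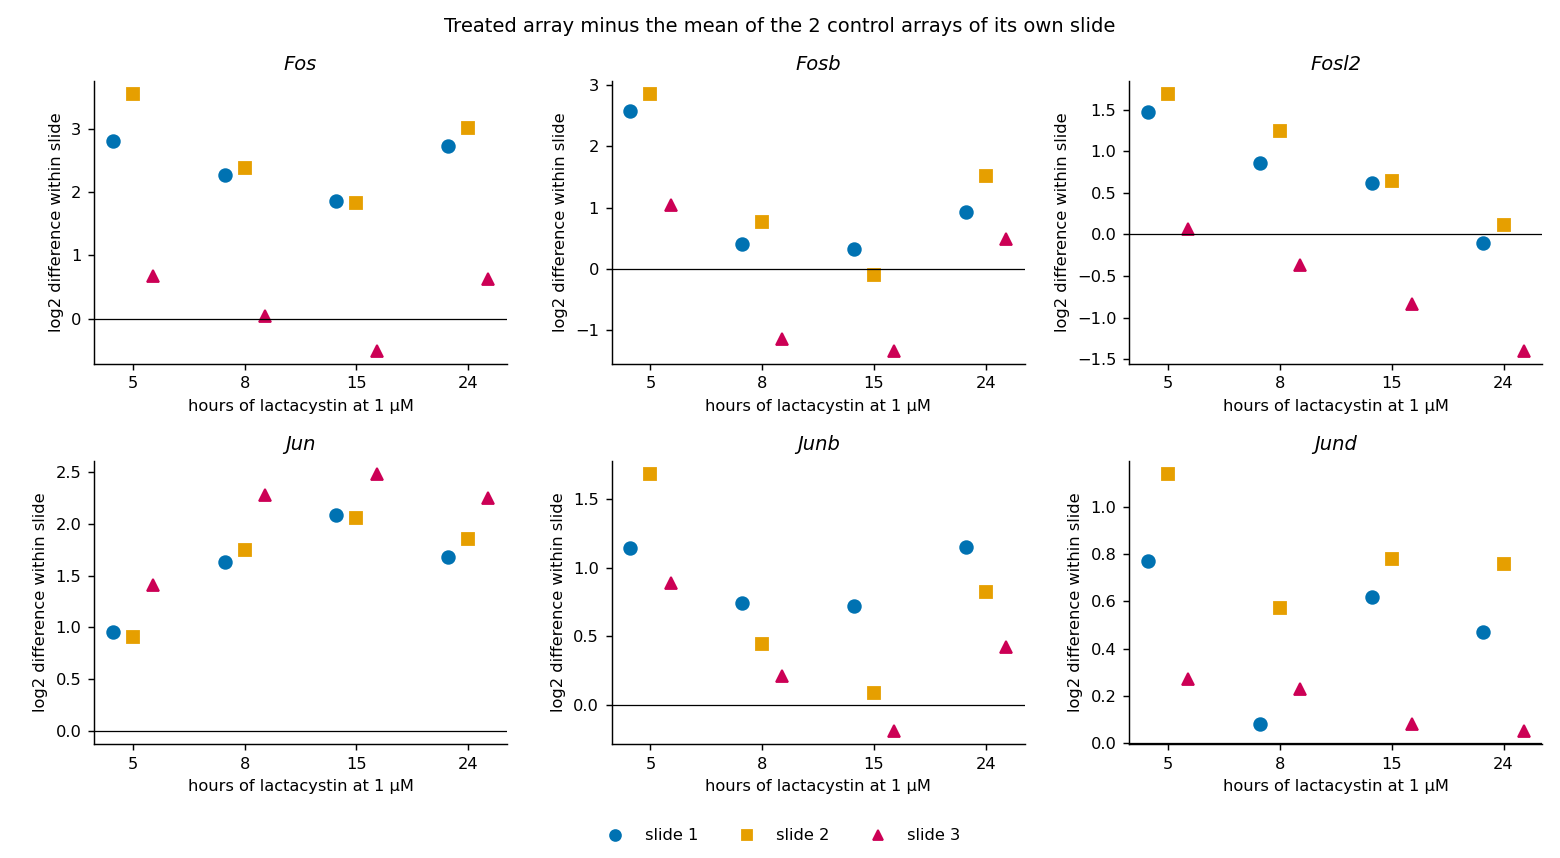
Log2 difference between the treated array and the mean of the 2 control arrays on the same slide (vertical axis) at 5, 8, 15 and 24 h of 1 µM, for slides 1, 2 and 3 by colour and shape. Fosb was detected on 0 of 3 arrays at 15 h. For Fos slide 3 lies at 0.68, 0.04, -0.51 and 0.62 while slides 1 and 2 lie at 1.83 and above, and for Jun slide 3 is the highest of the 3 slides at every time.

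At the lower dose 3 members fell at 15 h, against 8.01% of all genes, and none rose. Fosl2 fell by 1.16 on the log2 scale (SE 0.297, adjusted p = 0.0101), Jun by 0.54 (SE 0.167, adjusted p = 0.0312) and Jund by 0.50 (SE 0.162, adjusted p = 0.0372). Fosl2 and Jund lay below every control (exact two-sided permutation p = 0.0476 for each), while Jun overlapped the lowest control (p = 0.0833). The falls kept their sign within each slide, with -0.76, -0.67 and -2.04 for Fosl2, -0.76, -0.51 and -0.34 for Jun and -0.48, -0.17 and -0.87 for Jund. None of the 3 was called when the 15 h arrays and the controls were fitted alone, with adjusted p of 0.139, 0.206 and 0.195. Jund also lost its call without controls 5 and 6 (-0.31, adjusted p = 0.0942), and without replicate 1 or replicate 2 of the 15 h arrays Fosl2 alone was called. Jun lost its call without control 3 (adjusted p = 0.062), and Jund without control 1 or 6 or any 1 of the 15 h arrays. Without controls 5 and 6, Fos was called as higher, at 0.81 (adjusted p = 0.014), against 0.01 with them.

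At 24 h of 0.1 µM no member was called by limma, against 2.24% of all genes in either direction. With limma's unadjusted p under 0.05 there was 1 member, Fosl2, at -0.92 ± 0.297 (adjusted p = 0.0901). It was called without control 2 (-1.10, adjusted p = 0.0272) or control 4 (-1.11, adjusted p = 0.013). Jun was at -0.23, Jund at -0.29, Junb at -0.17 and Fos at -0.52, and Fosb was not well above background. The median of the members, with Fosb at its fitted value, was -0.39, against -0.029 over all genes. Median centring, which moved the median of all genes to -0.205 in this comparison, called Fosl2 and Jun, which then stood at -0.98 and -0.26 relative to that median.

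The second comparison sets the doses against each other at the same time. At 15 h 3 members were higher at 1 µM than at 0.1 µM, against 26.0% of all genes: Jun by 2.75 ± 0.193 (6.73-fold, adjusted p = 1.64e-10), Fosl2 by 1.29 ± 0.343 (adjusted p = 0.00313) and Jund by 1.00 ± 0.187 (adjusted p = 0.00012). Fos differed by 1.06 ± 0.583 (adjusted p = 0.139), although its 3 arrays at 1 µM were all above those at 0.1 µM. With the controls left out of the fit, so that their spread did not enter, Fos was called too (adjusted p = 1.96e-05), as it was without control 5 (adjusted p = 0.0113). Junb overlapped between the doses at 15 h, and Fosb was not well above background at either.

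At 24 h 5 members were higher at 1 µM than at 0.1 µM, again against 26.7% of all genes. Fos led with 2.65 ± 0.583 (6.26-fold, adjusted p = 0.000573), followed by Jun with 2.16 ± 0.193 (adjusted p = 4.65e-09), Junb with 0.96 ± 0.203 (adjusted p = 0.00037) and Jund with 0.71 ± 0.187 (adjusted p = 0.00274). Fosb was at least 1.75-fold higher (adjusted p = 0.013), with all arrays at 0.1 µM not well above background and mean log2 intensities of 5.87 at 1 µM and 4.4 at 0.1 µM, and it lost its call without replicate 1 of the 1 µM group. Fosl2 was at 0.45 ± 0.343 (adjusted p = 0.285) with no overlap between the doses, and it was called in the fit of the treated arrays alone (adjusted p = 9.93e-05). For 3 arrays against 3 the exact permutation p cannot go below 0.1, which each of the 6 members reached at 24 h. Within-slide differences had the same sign on all 3 slides for each member at 24 h, and at 15 h for Fos, Fosl2, Jun and Jund.

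**Figure D4:**
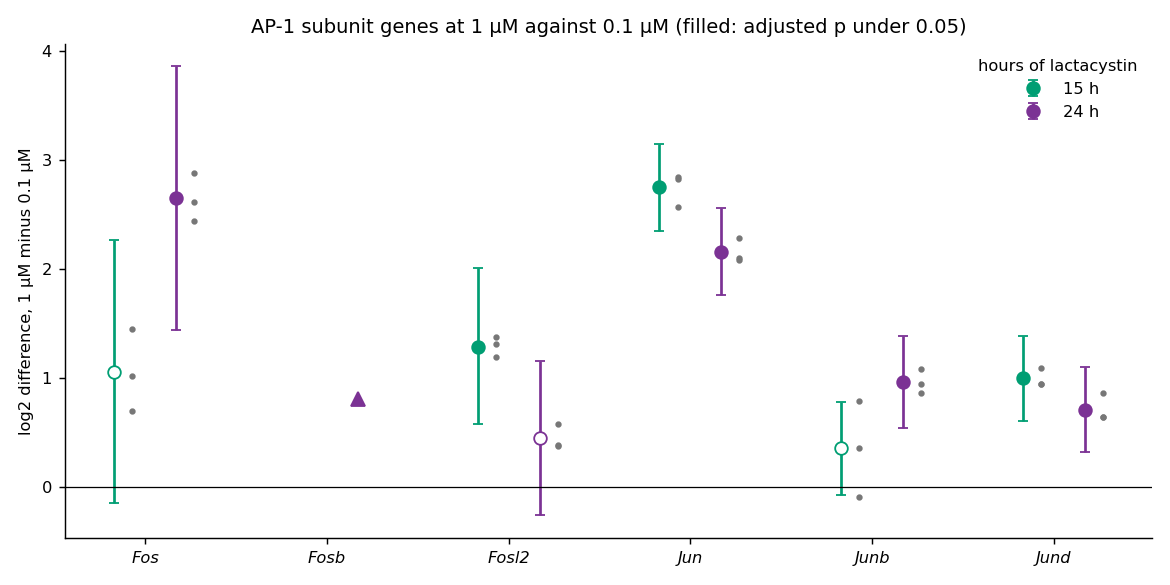
Log2 difference between 1 µM and 0.1 µM lactacystin (vertical axis, bars for the 95% confidence interval) of the 6 subunit genes at 15 h (green) and 24 h (purple), filled where the adjusted p is under 0.05, with grey dots for the difference on each of the 3 slides. The triangle is the lower bound of Fosb at 24 h, and Fosb, detected on no array at 15 h, has no point there. Jun differs by 2.75 and 2.16, and Fos by 1.06 at 15 h and by 2.65 at 24 h.

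The third comparison follows the members from one time to the next. Between 5 and 8 h of 1 µM, where 17.6% of all genes were called in either direction, Fosb fell by 2.16 (SE 0.479, adjusted p = 0.00379), with 1 of 3 arrays at 8 h and 3 of 3 at 5 h detecting it, and Junb by 0.77 (SE 0.203, adjusted p = 0.0112), while Jun rose by 0.79 ± 0.193 (adjusted p = 0.00716). Junb lost its call without replicate 3 of the 5 h group. Fos at -0.79, Fosl2 at -0.49 and Jund at -0.43 were not called in the fit of all arrays. For each of these 3 the 8 h arrays all lay below the 5 h arrays, and the fit of the 18 treated arrays alone called all 3, with adjusted p of 0.00126, 0.00023 and 0.00731. Jund was also called without control 5 (adjusted p = 0.0342). The 8 h arrays of Jun lay above the 5 h arrays on each slide, by 0.66, 0.84 and 0.87.

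From 8 to 15 h no member was called by limma, where 33.1% of all genes were, and none had an unadjusted p under 0.05. Their changes ran between -0.50 for Fos and 0.33 for Jun. In the fit of the treated arrays alone Fos and Fosl2 fell (adjusted p = 0.0161 and 0.000279) and Jun rose (adjusted p = 0.0112). From 15 to 24 h of 1 µM no member was called either, against 11.7% of all genes, and 2 had an unadjusted p under 0.05: Fosb (adjusted p = 0.0701) and Junb at 0.59 ± 0.203 (adjusted p = 0.062). Fosb, detected on 3 of 3 arrays at 24 h and on 0 of 3 at 15 h, was at least 1.70-fold higher, with mean log2 intensities of 5.87 and 4.52. Without control 5 Fos and Fosb were called (adjusted p = 0.0376 and 7.6e-05). Junb was called with slide as a block (adjusted p = 0.0348). Fos at 1.06 lay higher in all 24 h arrays than in all 15 h arrays, and the treated arrays alone called Fos, Fosb and Junb as higher (adjusted p = 0.000228, 0.000246 and 0.0444) and Fosl2 and Jun as lower (adjusted p = 8.93e-05 and 0.0391).

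At 0.1 µM no member was called by limma between 15 and 24 h, against 11.7% of all genes, and none had an unadjusted p under 0.05. Whether the step from 15 to 24 h differed between the doses was tested as an interaction. No member was called, against 16.8% of all genes, although 2 had an unadjusted p under 0.05 (Jun at -0.59 ± 0.272 and Junb at 0.61 ± 0.287). The interaction was 1.59 ± 0.824 for Fos, -0.84 ± 0.485 for Fosl2 and -0.29 ± 0.265 for Jund. Its sign was the same on all 3 slides for each of these and for Jun and Junb. Fosb has no value here, since it was detected on no array in 3 of the 4 groups, although its fit passed the threshold without control 5 (adjusted p = 0.00254) and in the treated arrays alone (adjusted p = 0.00459). Without control 5 Fos was called (adjusted p = 0.0217), and in the treated arrays alone Fos, Fosl2 and Jun were (adjusted p = 6.51e-05, 4.09e-05 and 0.00383).

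The order of the groups differed from member to member. Jun ran from 15 h of 1 µM at the top (mean log2 intensity 10.51 ± 0.0876, SD) through 24 h (10.22 ± 0.0691), 8 h (10.19 ± 0.0474) and 5 h (9.40 ± 0.0635) to the controls (8.30 ± 0.429), with 24 h of 0.1 µM (8.07 ± 0.16) and 15 h of 0.1 µM (7.76 ± 0.176) at the bottom. Among these neighbours 24 and 8 h of 1 µM overlapped, as did the controls with 24 h of 0.1 µM and the 0.1 µM groups with each other. Fos, Fosb, Fosl2, Junb and Jund all had 5 h of 1 µM at the top. Second place was held by 24 h for Fos (9.34 ± 0.0919), Fosb (5.87 ± 0.536) and Junb (6.52 ± 0.179), by 8 h for Fosl2 (10.5 ± 0.108) and by 15 h for Jund (7.97 ± 0.0818). For Fos and Junb the 5 and 24 h arrays overlapped, and for Fosb, Fosl2 and Jund the top group stood apart from the next. At the bottom stood 15 h of 0.1 µM for Fosl2, Jun and Jund and 24 h of 0.1 µM for Fos and Junb, apart from the next group for Fosl2 and Jund and overlapping it for Jun, Fos and Junb. For Fosb no order is given below 24 h of 1 µM, since most of those arrays did not detect it.

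Over the 24 arrays, which share groups and slides, the members followed each other to different degrees. Values of Fosb enter here also from the 16 arrays that did not detect it. Pearson correlations of log2 intensity between pairs ran between 0.23 for Fosb with Jun and 0.81 for Fos with Junb, for Fos with Jund and for Fosl2 with Jund. Jun was least like Fosb (0.23) and Fosl2 (0.44), and most like Jund (0.70). The genes most like Fos over the 24 arrays were Sertad1 (r = 0.918), Klf9 (0.911) and Prkd2 (0.872). For Fosb they were the activity-induced factor Egr4 (0.856), the neuronal immediate early gene Npas4 (0.852, detected on 13 of 24 arrays) and Cfl1 (0.839). Fosl2 was most like the nuclear receptor gene Nr4a2 (0.958), 1700029F09Rik (0.937) and Rfc3 (0.936), and Jun was most like Pip5k1a (0.971), Taf1a (0.970) and Nfkbil1 (0.967). Junb followed Prkd2 (0.828), Npas4 (0.821) and Fos itself (0.806), and Jund followed Rem2 (0.908), Sipa1l2 (0.898) and Nptx2 (0.891). These were picked as the highest of 10898 genes and describe likeness over these arrays alone.

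Of 13 other dimer partners and relatives, 8 were tested. Against the controls 4 rose at 5 h and 4 at 8 h of 1 µM, 6 rose at 15 h, and 6 rose and 1 fell at 24 h, where 6.19%, 20.1%, 27.2% and 26.7% of all genes rose. The list medians were 0.38, 0.49, 1.58 and 1.5, against -0.008, -0.011, -0.004 and -0.046 over all genes. Atf3, a stress-induced partner of Jun, showed the largest change of the list, with 1.92 ± 0.14, 3.61 ± 0.14, 4.59 ± 0.14 and 4.42 ± 0.14 at 5, 8, 15 and 24 h (adjusted p between 2.32e-08 and 1.56e-16). It was detected on every array at 1 µM, on 1 of 6 controls and on none at 0.1 µM, so it passed the probe filter through the 1 µM arrays. Its p-values are therefore no separate support, and its changes are set against controls mostly near background. The counts of rising partners at all 4 times include Atf3. Against 0.1 µM, Atf3 at 1 µM was at least 18.5-fold higher at 15 h and at least 16.4-fold higher at 24 h. Jdp2, a Jun partner that represses AP-1 targets, rose by 0.93 ± 0.179, 1.85 ± 0.179, 2.05 ± 0.179 and 1.79 ± 0.179 at the 4 times (adjusted p between 0.00205 and 2.96e-09). The small Maf genes Maff and Mafg rose at all 4 times too, to 1.77 and 1.23 at 24 h.

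Fosl1, which encodes Fra-1 and is itself an AP-1 target, was detected late. It was not well above background in the controls, at 5 and 8 h of 1 µM or at 0.1 µM, and was detected on all arrays at 15 and 24 h of 1 µM. It was at least 3.07-fold higher than in the controls at 15 h (adjusted p = 5.75e-16) and at least 3.75-fold higher at 24 h (adjusted p = 5.62e-17). Only these groups carried Fosl1 past the filter on dim probes, and the controls lay near background. These p-values are therefore no separate support, and the counts of rising partners at 15 and 24 h include Fosl1. Atf2 rose at 15 and 24 h by 0.82 ± 0.153 and 0.57 ± 0.153, and Atf7, detected on 1 of 6 controls and on no array at 24 h, was called as lower there (adjusted p = 0.0336). At 0.1 µM 1 gene rose (Mafg, 0.28) and 1 fell (Jdp2, -0.54) at 15 h, and 1 rose (Maff, 0.30) at 24 h, where 8.53% of all genes rose and 8.01% fell at 15 h and 0.697% rose at 24 h.

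**Figure D5:**
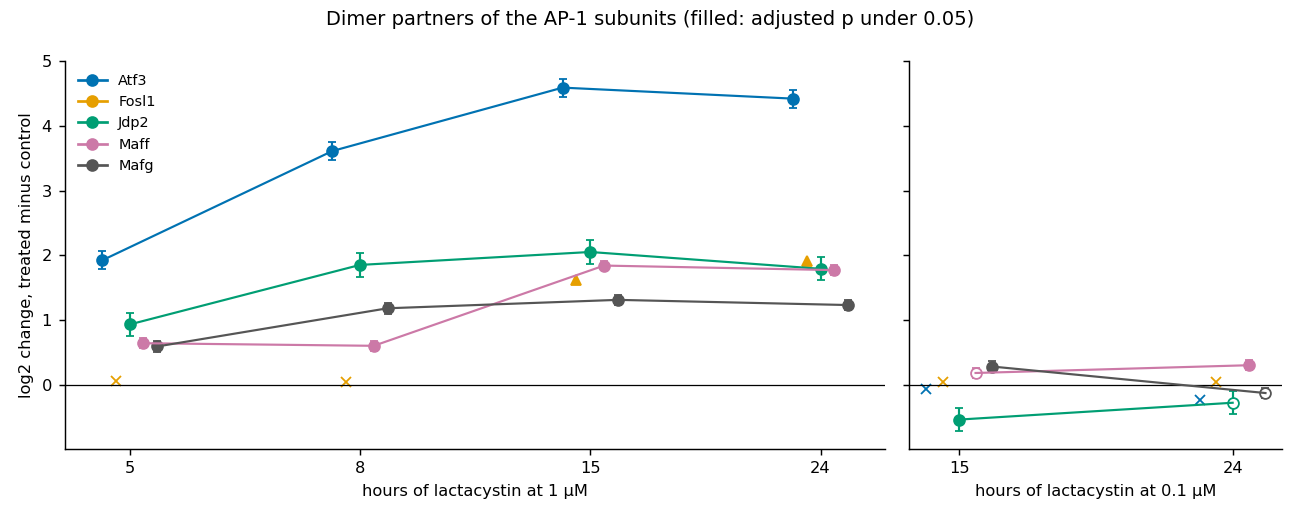
Log2 change against the 6 controls (vertical axis, bars for the SE) of 5 dimer partners of the AP-1 subunits at 5, 8, 15 and 24 h of 1 µM lactacystin (left) and at 15 and 24 h of 0.1 µM (right), filled where the adjusted p is under 0.05. The 5 shown all rose at 15 and 24 h of 1 µM, and the tested relatives Atf2, Atf7 and Batf are not shown. Triangles are lower bounds, and crosses without bars mark groups where no array detected the gene. Atf3 is at 1.92 at 5 h and at 4.59 at 15 h, and Fosl1 has crosses until 8 h and bounds of 3.07-fold and 3.75-fold at 15 and 24 h.

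Of 14 tested genes of the JNK cascade, 1 rose and 1 fell at 5 h of 1 µM, 2 rose and 4 fell at 8 h, 5 rose and 4 fell at 15 h, and 3 rose and 7 fell at 24 h, with list medians between -0.20 and -0.04. Of all genes 10.3%, 39.9%, 54.9% and 57.4% were called in either direction at these 4 times. Taken over both directions, the counts of this list of kinases and scaffolds upstream of Jun lie near the background. By direction, 7 of 14 fell at 24 h, where 30.7% of all genes did, and 3 rose, where 26.7% did. The largest changes were those of the kinase gene Map3k5 (0.74 ± 0.224) at 5 h, the scaffold gene Mapk8ip1 (-0.82 ± 0.107) at 8 h, Map3k1 (-1.09 ± 0.0937) at 15 h and the scaffold gene Mapk8ip2 (-1.12 ± 0.13) at 24 h. Map3k12, the dual leucine zipper kinase of neuronal stress signalling, fell at all 4 times, with -0.40, -0.28, -0.75 and -0.74 (SE 0.0913 each). At 8 h Mapk9 rose by 0.53 ± 0.0747 and Map3k10 fell by 0.50 (SE 0.103). Kinase activity was not measured by these arrays.

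Of 11 tested genes of the ERK cascade and of the factors that bind the Fos promoter, none was called at 5 h, when Fos was highest and 10.3% of all genes were called. At 8, 15 and 24 h 4, 7 and 5 rose and 1 fell at each time. Of all genes 20.1%, 27.2% and 26.7% rose and 19.8%, 27.7% and 30.7% fell at these times. The falling gene was Mapk3, which encodes ERK1, with -0.87 ± 0.104, -1.43 ± 0.104 and -1.69 ± 0.104. Srf, the serum response factor of the Fos promoter, rose by 0.72 ± 0.0774 at 8 h and by 0.89 ± 0.0774 at 15 h. Creb1 rose by 0.86 ± 0.186 at 15 h and by 0.68 ± 0.186 at 24 h, and Elk3 rose by 0.96 ± 0.0881 at 24 h. Of 5 tested genes for ubiquitin ligases that act on Jun or Fos proteins, none was called at 5 h, 1 fell at 8 h (Fbxw7, -0.37 ± 0.0805), 2 rose and 1 fell at 15 h, and 2 rose and 2 fell at 24 h, against the same shares of all genes. Itch and Cop1 were the 2 that rose, with 0.56 ± 0.132 and 0.56 ± 0.134 at 15 h.

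Textbook target genes of AP-1 were counted in the same way. Of 16 tested, 3 rose at 5 h of 1 µM, 4 rose and 1 fell at 8 h, 10 rose and 3 fell at 15 h, and 9 rose and 2 fell at 24 h, where 6.19%, 20.1%, 27.2% and 26.7% of all genes rose and 4.08%, 19.8%, 27.7% and 30.7% fell. The list medians were 0.06, 0.02, 0.60 and 0.86, against -0.008, -0.011, -0.004 and -0.046 over all genes. Hmox1, the heme oxygenase gene, rose by 1.06 ± 0.205, 2.23 ± 0.205, 3.59 ± 0.205 and 3.47 ± 0.205 at the 4 times. Plaur, the urokinase receptor gene, was not well above background in the controls and was at least 4.48-fold higher at 15 h and at least 6.29-fold higher at 24 h. It therefore passed the probe filter only through treated arrays, so its calls are not independent of that filter. The counts of rising targets at 15 and 24 h include Plaur. Vegfa rose by 1.08 ± 0.17 at 8 h. Bcl2l11, which encodes the death protein Bim, rose by 1.94 ± 0.157 at 15 h, and Spp1 fell at 8, 15 and 24 h, with -0.72, -1.23 and -1.96 (SE 0.23 each). At 0.1 µM 3 target genes rose and 1 fell at 15 h, the falling gene being Npy at -1.44 ± 0.247, and 2 fell at 24 h, against 8.53% and 8.01% of all genes that rose and fell at 15 h and 1.54% that fell at 24 h. Among the 3 that rose at 15 h were Timp1, by 0.96 ± 0.22, and Ccnd1, by 0.87 ± 0.166. Many of these genes have other regulators, and the lists were chosen with results of these arrays known.

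Summed marker levels of astrocytes, the oligodendrocyte lineage and neurons lay below the range of the controls from 8 h of 1 µM on, as values with no test. The summed log2 intensity of 7 astrocyte markers was 56.2 to 56.9 at 8 h, 51.6 to 52.8 at 15 h and 49.5 to 50.3 at 24 h of 1 µM, against 58.1 to 62.6 in the controls, and that of 7 oligodendrocyte lineage markers was 55.5 to 56.2, 46.4 to 47.1 and 47.9 to 48.5 at these times, against 57.7 to 59.8. At 5 h the astrocyte sum was 58.1 to 58.7 and the oligodendrocyte sum 56.5 to 57.3, the second already below the controls. The neuronal sum over 6 markers was 54.8 to 55.4 at 8 h, 53.8 to 54.6 at 15 h and 53.7 to 54.0 at 24 h, against 55.9 to 58.3 in the controls. The microglial sum over 8 markers was 38.6 to 39.0 at 8 h, 41.0 to 41.4 at 15 h and 43.1 to 43.3 at 24 h, against 39.0 to 42.4. Of these 8 markers, 4 were undetected on every array at 8 h, 5 at 15 h and 4 at 24 h. That sum therefore rests in large part on values near background. The astrocyte markers Slc1a2 and S100b were undetected in every group. The part of such shifts in the members' changes was not tested.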

How the data were processed

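Biotin-labelled RNA was hybridised to 24 Illumina arrays. Per the file headers, BeadStudio 3.2.6 gave, without normalization, a mean bead intensity, the spread and number of beads, and a detection score as a fraction per gene. The deposited probe table holds intensity in arbitrary units. The deposited normalized table is a ratio, recomputed here as signal scaled to the median of its array, set against the control mean (within 1.87e-05), and served as an alternative. The log2 values were computed here from the deposited intensities. Treated columns labelled replicate 1, 2 and 3 match scanner arrays labelled 3, 1 and 2 of the same group (99.924% of 14487 genes within 1e-06), whereas control columns match as labelled. No group changes by this, and slides are those of the matching array. Probe identifiers were not used, since 17 of 7423 named the gene of their row. Symbols were updated through RefSeq accessions (20514 probes).

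The limma package 3.58.1 (R 4.3.3) was used for normexp background correction from detection p (nec, offset 16), quantile normalization and log2. A probe counted as detected at a score of 0.99 or more, and 13562 probes so detected on 3 or more arrays stayed in. For genes with several probes, such as Fosl2, the score was interpolated from signals and scores of single-probe genes on the same array. The background correction used these scores too. Each gene was tested through its brightest probe. lmFit and eBayes fitted the 7 group means without a block, and 13 comparisons were adjusted by Benjamini-Hochberg over all 10898 genes, with calls at an adjusted p under 0.05. A wider control spread enters every comparison through the shared variance. Motifs were searched in Python 3.11.15. Single members were also compared by exact permutation of arrays.

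Deviations from group means correlated at a median of 0.31 over 45 pairs of treated arrays on the same slide and of -0.09 over 90 pairs on other slides. Slide as a block and within-slide values are therefore given. Alternatives were cyclic loess, median centring, offset 50, signals without background correction, no probe filter, a filter at 12 detected arrays, all kept probes, the compared groups alone, slide blocks, array weights, a robust variance trend, the authors' ratio, leaving out arrays and, added after the data were seen, the 18 treated arrays alone. Genes named are all members and the 3 genes most correlated with each member. From each list they were taken among the 3 called genes with the largest change in a comparison, and not all of these are named. Atf7, and further values of genes so named, were added after they were seen. Members and lists were chosen with earlier results of these data known.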

Additional observations from a re-analysis of the deposited data

Results flagged for a closer look

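Fosb in control 5 had a log2 intensity of 7.187, the highest of the 6 controls, and its gap to the next control took 0.897 of the range of the group, above Dixon's critical value of 0.625 for 6 samples. Chance alone flags about 1 in 20 groups, and the control groups of the 6 members were examined at both ends. For Fos (9.70), Fosl2 (11.04) and Jund (8.12) control 5 was also the highest control, without passing that criterion. None of the other 5 controls detected Fosb. Against those 5 it was at least 3.97-fold higher at 5 h and at least 1.75-fold higher at 24 h of 1 µM, and with all 6 controls its log2 changes were 2.16 and 0.98.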

How the results depend on the processing

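Of 1121 changes of single members recomputed under other settings, 1015 kept their side of the threshold, 31 lost their call and 75 gained one. With 1 array left out, 1805 of 1872 kept their side. No called value turned its sign, while 13 and 17 values called in neither fit did. Jun against the controls was called at all 4 times of 1 µM in all 38 alternatives. The members called were, against the main counts in brackets, as follows. With the compared groups alone there were 2 at 5 h (6), 1 at 15 h (2), 3 at 24 h (5) and 0 at 15 h of 0.1 µM (3). In that fit 5 were called from 5 to 8 h (3), 3 from 8 to 15 h (0), 4 from 15 to 24 h (0) and 4 in the interaction (0). Median centring gave 1 at 15 h, 3 at 24 h, 2 at 24 h of 0.1 µM (0) and 1 from 15 to 24 h, and the authors' ratio gave 1, 3, 1 and 1. Array weights gave 1 at 24 h of 0.1 µM, 5 between doses at 15 h (3), 5 from 5 to 8 h, 1 from 8 to 15 h, 4 from 15 to 24 h and 4 in the interaction. Without controls 5 and 6 there were 6 at 8 h (3), 4 at 15 h, 5 from 5 to 8 h, 3 from 15 to 24 h and 3 in the interaction. No filter gave 1 at 15 h of 0.1 µM, and cyclic loess gave 1 from 15 to 24 h. The fit of 18 treated arrays alone, chosen after seeing the data, gave 6 from 5 to 8 h, 3 from 8 to 15 h, 5 from 15 to 24 h, 3 from 15 to 24 h of 0.1 µM (0) and 4 in the interaction. The replicate block, by slide or by label, gave 1 from 15 to 24 h and moved no other count by over 1.5 times. Leaving out 1 array gave 5 to 6 at 5 h, 1 to 6 at 8 h, 1 to 3 at 15 h, 3 to 5 at 24 h, 1 to 3 and 0 to 1 at 15 and 24 h of 0.1 µM, 3 to 4 and 4 to 5 between doses, 2 to 4 from 5 to 8 h, 0 to 2 from 15 to 24 h and 0 to 2 in the interaction. Of 48 exact permutation tests of members against controls or between doses, 16 missed 0.05 for a member that limma called, 8 of them between doses, where 3 against 3 arrays cannot reach it. The cause of these shifts was not tested.

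Over all genes, calls ranged over alternatives from 131 to 2547 at 5 h (1120 as reported), 445 to 2278 at 15 h of 0.1 µM (1803), 0 to 2204 at 24 h of 0.1 µM (244), 1563 to 4216 from 5 to 8 h (1915), 3170 to 5427 from 8 to 15 h (3605), 997 to 3112 from 15 to 24 h (1277), 822 to 2774 for that step at 0.1 µM (1275) and 1086 to 3539 in the interaction (1831). The share of higher calls, 60.3% at 5 h, was 41.9% under median centring and 43.0% in the authors' ratio table. In the same order it was 26.7% and 30.5% at 15 h of 0.1 µM (51.6%), 3.2% and 4.1% at 24 h of 0.1 µM (31.1%), 79.2% and 74.6% from 5 to 8 h (52.5%), 25.8% and 29.4% from 8 to 15 h (46.1%), 33.2% and 33.0% from 15 to 24 h (47.8%) and 18.7% and 20.6% for that step at 0.1 µM (38.8%). Median centring gave 61.2% at 8 h (50.3%) and 35.1% at 24 h (46.6%). It moved the median of all genes to -0.147 at 24 h, -0.139 and -0.205 at 15 and 24 h of 0.1 µM and -0.105 from 8 to 15 h, and the authors' ratio moved it to -0.13 at 24 h of 0.1 µM. Exact permutation of 3 against 3 arrays cannot go below 0.1. Fosb, near background on most arrays, is limited by signal, and nothing shows that arrays are separate cultures.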
